A study of Mus musculus with 11 samples.

Results

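The genes described are those of the mitochondrial ribosomal proteins, chosen as every gene of the counts table whose symbol is Mrpl or Mrps followed by a number and, in some cases, a letter a to c. The rule used names alone and gave 78 of 32285 genes, 49 with an Mrpl and 29 with an Mrps symbol. By the place of the protein, 51 belong to the large subunit, among them Mrps18a and Mrps30 despite their symbols, and 26 to the small subunit. The remaining gene, Mrps36, encodes a component of the oxoglutarate dehydrogenase complex, an enzyme of the citric acid cycle, and was kept because the rule takes it. All 78 passed the filter for low counts and stand among the 15093 genes tested.

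RNA was sequenced from mouse pancreatic islets, the clusters of endocrine cells that hold the insulin-producing β cells. Islets came from mice labelled βZKO_Mip, a β-cell-specific knockout of Zzef1, or from littermate controls, all 16 weeks old and given 4 weeks of high-fat diet, and the treatment was 24 h of azoramide at 10 µM or of DMSO, the solvent. The study's text does not say whether isolated islets or mice were treated, and it gives the same concentration for DMSO. Azoramide is a compound known to modulate the unfolded protein response, which adjusts the folding capacity of the endoplasmic reticulum. There were 3 libraries labelled knockout with azoramide, 2 labelled knockout with DMSO, 3 control libraries with azoramide and 3 control libraries with DMSO, and each held pooled islets of at least 3 mice. The labels do not say what drives the deletion, nor whether libraries of 1 genotype share mice. Where they do, p-values cover only the spread between these samples.

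Mitochondria make a small set of proteins of their own, all subunits of the respiratory chain or the ATP synthase, from mRNAs of the mitochondrial genome. The ribosome that does this has RNA from the mitochondrial genome, but each of its proteins is encoded in the nucleus, made in the cytosol and imported. Part of these proteins descend from bacterial ribosomal proteins and the others were added in mitochondria. β cells couple glucose to insulin release through mitochondrial ATP, so that the respiratory chain this ribosome serves is part of how an islet senses glucose.

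Depth was 16832800 to 19501813 counts per library, with 17687 to 17999 genes detected. In a principal component analysis, azoramide and DMSO libraries were apart on the first axis (47.7% of the variance), and labelled knockout azoramide library 3 and control DMSO library 2 were the ends of the second. Zzef1 did not show a clear loss in the libraries labelled knockout. There it averaged 72.8 ± 4.5 CPM with azoramide and 81.5 ± 2.9 CPM with DMSO (SD, n = 3 and 2). In control libraries it averaged 66.6 ± 2.0 CPM with azoramide and 97.2 ± 12.2 CPM with DMSO (SD, n = 3 each). With DMSO, the labelled knockout libraries (79.4 to 83.5 CPM) lay below the control libraries (85.4 to 109.7 CPM). With azoramide they lay above, at 68.7 to 77.7 CPM against 64.3 to 68.1 CPM. A count over the whole gene in whole islets does not show whether β cells carry the deletion. CPM relate a gene's count to the total of its library, here with TMM scaling, which assumes most genes unchanged. Islet identity was clear from Ins1, Ins2, Iapp, Gcg, Sst and Ppy, while markers of exocrine acinar cells varied within every group, with summed levels of 839 to 4532 CPM in labelled knockout azoramide libraries, 415 to 1903 CPM in labelled knockout DMSO libraries, 1353 to 3567 CPM in control azoramide libraries and 705 to 4295 CPM in control DMSO libraries.

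Mitochondrial ribosomal protein mRNAs were higher with azoramide in both genotypes. Summed over the 78 genes, their level was 2239, 2255 and 2164 CPM in labelled knockout libraries with azoramide, against 1616 and 1622 CPM in labelled knockout libraries with DMSO. In control libraries the sum was 2230, 2259 and 2311 CPM with azoramide, against 1636, 1704 and 1620 CPM with DMSO. All 6 azoramide libraries lay above all 5 DMSO libraries, and the genotypes overlapped within each treatment. As a share of all counts, the genes took 0.206 to 0.219% in labelled knockout libraries with azoramide and 0.174% in each labelled knockout library with DMSO, and in control libraries 0.205 to 0.218% with azoramide and 0.172 to 0.176% with DMSO. In bulk islets, fewer cells of a type and less RNA per cell cannot be told apart.

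Gene by gene, azoramide against DMSO gave 61 of 78 genes higher and 0 lower in libraries labelled knockout, and 61 of 78 higher and 0 lower in control libraries, at an adjusted p of 0.05 in edgeR's quasi-likelihood test with Benjamini-Hochberg adjustment over all genes tested. Over all genes, the share called higher was 20% in libraries labelled knockout and 19.3% in control libraries, and the share called lower was 19.8% in each. DESeq2's Wald test gave 60 and 61 genes higher and likewise 0 lower, and at an unadjusted p under 0.05 edgeR had 0 and 0 genes lower. The median log2 fold change of the 78 genes was 0.50 in libraries labelled knockout and 0.49 in control libraries, against -0.003 and -0.02 over all genes tested. The changes were moderate: 28 genes in libraries labelled knockout and 27 in control libraries were called and at least 1.5-fold higher, and 1 gene, Mrpl35, reached 2-fold, in libraries labelled knockout. The middle 50% of the genes lay between 0.33 and 0.65 in libraries labelled knockout and between 0.30 and 0.64 in control libraries. Short genes as a whole were called higher with azoramide more often than long ones, so 2 further fits, with length and GC content taken out of each library, are given beside genes they change: a union-length fit, by all annotated exonic bases, and a main-transcript fit, chosen after seeing the data.

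**Figure D1:**
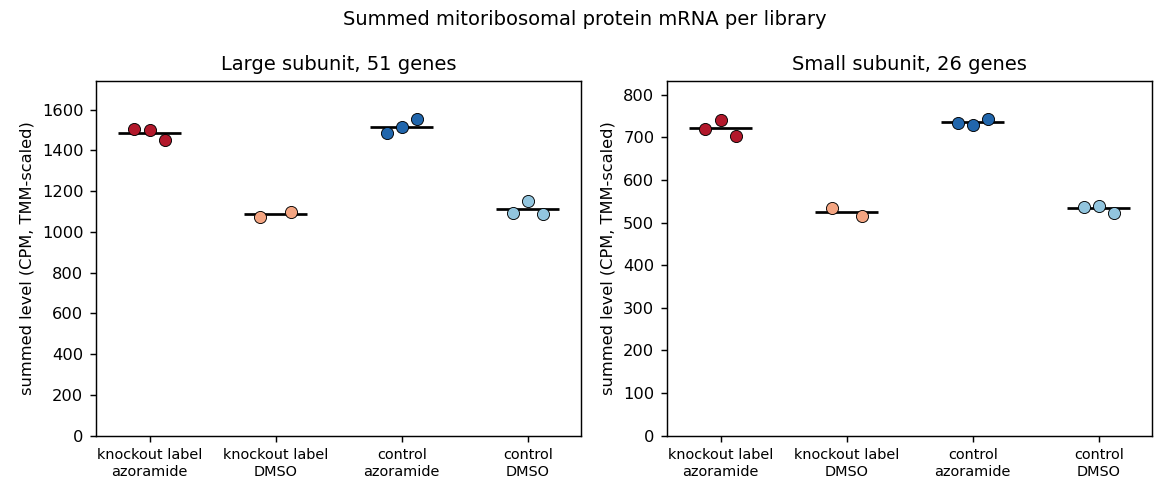
Summed level in CPM after TMM scaling, on axes from 0, of the 51 large-subunit genes (left) and the 26 small-subunit genes (right) in each library. Points are libraries and bars group means; in both panels every azoramide library lies above every DMSO library, with means for the large subunit of 1487 and 1086 CPM in libraries labelled knockout and 1518 and 1111 CPM in control libraries, azoramide first.

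Both subunits moved. Large-subunit genes summed to 1487 ± 30.3 CPM with azoramide and 1086 ± 17.0 CPM with DMSO in libraries labelled knockout (SD, n = 3 and 2), and to 1518 ± 35.4 CPM with azoramide and 1111 ± 37.2 CPM with DMSO in control libraries (SD, n = 3 each). Of the 51, 39 were higher in libraries labelled knockout and 41 in control libraries, with median log2 fold changes of 0.45 and 0.50. Small-subunit genes summed to 721 ± 19.2 CPM with azoramide and 525 ± 14.4 CPM with DMSO in libraries labelled knockout, and to 735 ± 7.15 CPM with azoramide and 533 ± 8.57 CPM with DMSO in control libraries. Of the 26, 21 were higher in libraries labelled knockout and 19 in control libraries, with medians of 0.53 and 0.45. The order of the subunits by their medians thus differed between the genotypes, and the difference between subunits was not tested. Of 48 genes whose protein has a bacterial counterpart, 38 were higher in libraries labelled knockout and 39 in control libraries, with medians of 0.50 and 0.49. Of 29 whose protein was added in mitochondria, 22 were higher in libraries labelled knockout and 21 in control libraries, with medians of 0.54 and 0.49.

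Among large-subunit genes, the 5 with a bacterial counterpart and a place among the largest changes were Mrpl30, Mrpl35, Mrpl33, Mrpl20 and Mrpl55. Mrpl35 (chromosome 6, 71812997 to 71826969, minus strand, GRCm38) had 12.9, 11.1 and 14.3 CPM with azoramide and 5.08 and 6.14 CPM with DMSO in libraries labelled knockout, and 16.5, 12.6 and 16.3 CPM with azoramide and 8.18, 10.8 and 5.88 CPM with DMSO in control libraries. The groups did not overlap within either genotype, but the control DMSO libraries spread widely. Its log2 fold change was 1.18 (SE 0.22, adjusted p = 0.00049, edgeR) in libraries labelled knockout and 0.87 (SE 0.19, adjusted p = 0.0016, edgeR) in control libraries. Mrpl30 (chromosome 1, 37890477 to 37898535, plus strand) had 46.5, 44.6 and 45.8 CPM with azoramide and 26.2 and 24.7 CPM with DMSO in libraries labelled knockout, and 45.6, 45.5 and 47.5 CPM with azoramide and 26.2, 25.4 and 22.3 CPM with DMSO in control libraries. It rose by 0.84 (SE 0.09, adjusted p = 1.5e-06, edgeR) in libraries labelled knockout and by 0.91 (SE 0.08, adjusted p = 1.4e-07, edgeR) in control libraries on the log2 scale, the largest value among the 78 genes in control libraries. In the main-transcript fit its values were 0.27 and 0.40, still past the threshold in both genotypes.

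Mrpl33 (chromosome 5, 31596935 to 31664384, plus strand), counterpart of a small protein of the bacterial large subunit, had 46.8, 45.8 and 40.0 CPM with azoramide and 21.1 and 23.2 CPM with DMSO in libraries labelled knockout, and 39.9, 42.8 and 41.3 CPM with azoramide and 24.4, 26.5 and 20.4 CPM with DMSO in control libraries. Its treatments lay far apart, with log2 fold changes of 1.0 (SE 0.11) in libraries labelled knockout and 0.80 (SE 0.10) in control libraries. In the main-transcript fit they were 0.36 (adjusted p = 0.025, edgeR) in libraries labelled knockout and 0.19 (adjusted p = 0.18, edgeR) in control libraries, so that the control call ended. Mrpl20, whose bacterial counterpart helps assemble the large subunit, changed by 0.75 (SE 0.11) in libraries labelled knockout and by 0.86 (SE 0.10) in control libraries. In the main-transcript fit Mrpl20 had 0.26 in libraries labelled knockout, no longer past the threshold, and 0.40 in control libraries. Mrpl55 changed by 0.50 (SE 0.14, adjusted p = 0.010, edgeR) in libraries labelled knockout and by 0.85 (SE 0.13, adjusted p = 5.6e-05, edgeR) in control libraries. Its labelled knockout azoramide library 3, at 13.0 CPM, stayed close to the 12.4 CPM of the higher DMSO library, while the other two azoramide libraries had 18.3 and 18.0 CPM. The labelled knockout call of Mrpl55 ended in both length fits, at 0.18 and 0.19, with plain library totals, at 0.34, and without azoramide library 1 or DMSO library 1 of that label.

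Mrpl52 and Mrpl41 encode large-subunit proteins with no bacterial counterpart. Mrpl52 (chromosome 14, 54426909 to 54429756, plus strand) had 33.0, 36.0 and 33.6 CPM with azoramide and 16.4 and 21.1 CPM with DMSO in libraries labelled knockout, and 36.1, 35.9 and 38.0 CPM with azoramide and 21.3, 23.0 and 18.3 CPM with DMSO in control libraries. It rose by 0.87 (SE 0.12) in libraries labelled knockout and by 0.81 (SE 0.10) in control libraries, with adjusted p-values of 1.9e-05 and 9.3e-06 in edgeR. Mrpl41 rose by 0.86 (SE 0.11) in libraries labelled knockout and by 0.72 (SE 0.10) in control libraries. In the small subunit Mrps28, Mrps22 and Mrps18c were among the largest changes. Mrps22, a mitochondrial addition that is mutated in a human disorder of the respiratory chain, had 19.4, 18.6 and 18.4 CPM with azoramide and 10.5 and 10.9 CPM with DMSO in libraries labelled knockout, and 20.2, 19.0 and 18.1 CPM with azoramide and 10.6, 10.2 and 12.1 CPM with DMSO in control libraries. Within each genotype its groups lay far apart, and its log2 fold changes were 0.81 (SE 0.11) in libraries labelled knockout and 0.80 (SE 0.10) in control libraries. Mrps28 rose by 0.81 (SE 0.12) in libraries labelled knockout and by 0.82 (SE 0.10) in control libraries. In the main-transcript fit, values in libraries labelled knockout were 0.41 for Mrpl52, 0.48 for Mrpl41, 0.46 for Mrps22 and 0.51 for Mrps28, and in control libraries 0.34, 0.35, 0.48 and 0.51 in that order of genes, all past the threshold.

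The promoters of these genes were searched for the letters of motifs, among them those of factors known to drive nuclear genes for mitochondrial proteins. RefSeq promoter windows (GRCm38.p6) of 250 bases before to 50 bases after a start matched 69 of the 78 genes, with 75 windows. Both strands were searched for exact letters. The ETS letters CCGGAAG, read by GABPA and other ETS factors, were in 34.7% of the windows, against 15.7% of windows of all genes tested and 8.9% of all 32851 windows. The YY1 letters AAGATGG were in 17.3%, against 6.7 and 6.3%, and the NRF1 letters GCGCATG in 10.7%, against 6.3 and 3.9%. The GC-box letters GGGCGG were in 52.0%, against 59.5 and 35.7%, and the TATA-box letters TATAAA in 6.7%, against 7.8 and 13.6%. None of these 5 strings contains another, so no base string was counted under a different name, although matches may overlap in part. A match is a string of letters and not a site shown to be bound. The bases upstream of Mrpl52 (chr14:54426659-54426908, plus strand) and Mrps22 (chr9:98601680-98601929, minus strand) are shown because both genes are among the largest changes and hold such strings close to the start. Capitals mark ETS and YY1 letters, on either strand.
Mrpl52: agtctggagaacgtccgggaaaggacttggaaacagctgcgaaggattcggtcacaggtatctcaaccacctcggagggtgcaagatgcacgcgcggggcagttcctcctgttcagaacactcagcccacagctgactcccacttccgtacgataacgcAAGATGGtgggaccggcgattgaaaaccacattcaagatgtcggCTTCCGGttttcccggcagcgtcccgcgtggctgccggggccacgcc
Mrps22: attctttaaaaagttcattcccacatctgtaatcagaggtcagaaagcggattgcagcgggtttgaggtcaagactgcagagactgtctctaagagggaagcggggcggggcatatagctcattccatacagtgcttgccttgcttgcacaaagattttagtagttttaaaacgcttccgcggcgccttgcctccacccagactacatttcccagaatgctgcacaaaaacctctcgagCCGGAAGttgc
In the Mrpl52 window the capitals are the YY1 letters at -91 to -85 and the ETS letters on the opposite strand at -47 to -41, counted from the RefSeq start. In the Mrps22 window they are the ETS letters at -11 to -5. The azoramide effect was read with and without each of the ETS, YY1 and NRF1 letters. Of the 26 genes with a match, 20 were higher in libraries labelled knockout and 20 in control libraries, with median log2 fold changes of 0.57 and 0.58, and of the 43 genes without, 36 and 37 were higher, with medians of 0.50 and 0.46. For the YY1 letters, the medians in libraries labelled knockout were 0.53 with a match (13 genes) and 0.50 without (56 genes), and in control libraries 0.40 with and 0.54 without. For the NRF1 letters, they were 0.42 with a match (8 genes) and 0.53 without (61 genes) in libraries labelled knockout, and 0.52 with and 0.50 without in control libraries. These values are a description with no test.

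**Figure D2:**
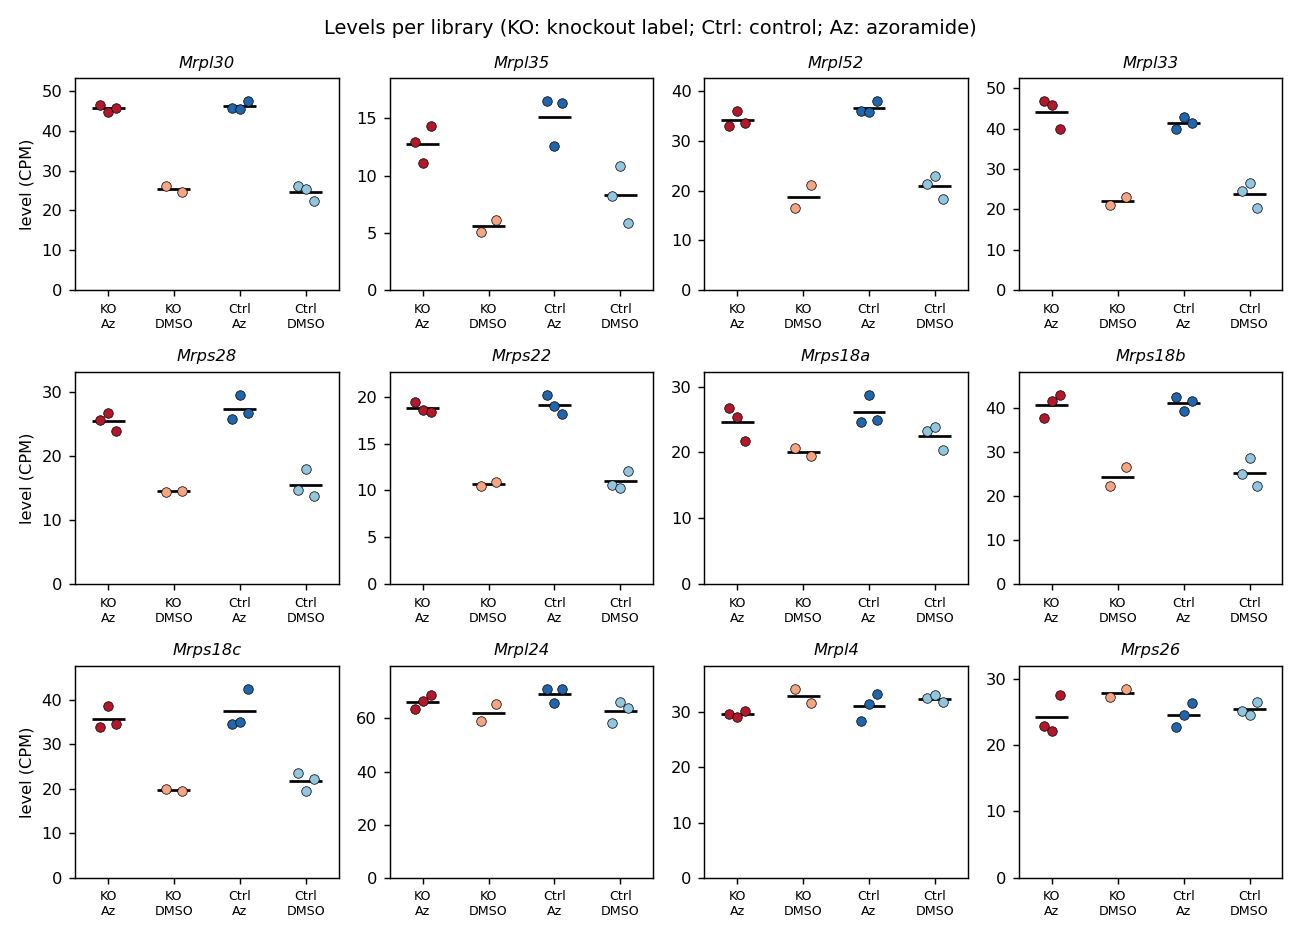
Level in CPM after TMM scaling of 12 genes in each library, on axes from 0, with the azoramide group left of the DMSO group of the same genotype; points are libraries and bars group means. Mrpl30, Mrpl35, Mrpl52, Mrpl33, Mrps28, Mrps22, Mrps18b and Mrps18c show no overlap between treatments, Mrps18a a small step, and Mrpl24, Mrpl4 and Mrps26 none past the test.

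The 3 mammalian counterparts of the bacterial small-subunit protein S18 allow a comparison of close paralogues. Mrps18b and Mrps18c proteins sit in the small subunit and Mrps18a in the large one. Mrps18b (chromosome 17, 35910379 to 35916389, minus strand) had 37.7, 41.5 and 42.9 CPM with azoramide and 22.2 and 26.5 CPM with DMSO in libraries labelled knockout, and 42.5, 39.2 and 41.6 CPM with azoramide and 24.9, 28.6 and 22.2 CPM with DMSO in control libraries. Mrps18c (chromosome 5, 100798627 to 100804471, plus strand) had 33.9, 38.6 and 34.5 CPM with azoramide and 19.9 and 19.5 CPM with DMSO in libraries labelled knockout, and 34.5, 35.0 and 42.5 CPM with azoramide and 23.4, 19.5 and 22.1 CPM with DMSO in control libraries. Both rose without overlap, in libraries labelled knockout by 0.74 (SE 0.11) for Mrps18b and 0.86 (SE 0.11) for Mrps18c on the log2 scale, and in control libraries by 0.70 (SE 0.10) and 0.79 (SE 0.10). Mrps18a (chromosome 17, 46110986 to 46128910, plus strand) had 26.8, 25.5 and 21.7 CPM with azoramide and 20.7 and 19.5 CPM with DMSO in libraries labelled knockout, and 24.6, 28.8 and 25.0 CPM with azoramide and 23.3, 23.9 and 20.4 CPM with DMSO in control libraries. Its log2 fold change was 0.30 (SE 0.11, 95% interval 0.07 to 0.52, adjusted p = 0.047, edgeR) in libraries labelled knockout and 0.21 (SE 0.10, 95% interval 0.02 to 0.41, adjusted p = 0.11, edgeR) in control libraries, and the labelled knockout call ended in DESeq2's Wald test, with plain totals, and without any 1 of 7 libraries, among them both labelled knockout DMSO libraries. The order of the paralogues depended on how length was treated. In the union-length fit Mrps18a had 0.48 (adjusted p = 0.0052, edgeR) in libraries labelled knockout and 0.35 (adjusted p = 0.019, edgeR) in control libraries, above Mrps18c with 0.26 (adjusted p = 0.098, edgeR) and 0.25 (adjusted p = 0.073, edgeR). In the main-transcript fit Mrps18a had 0.05 in libraries labelled knockout and -0.05 in control libraries, and Mrps18c 0.17 and 0.16, with neither gene past the threshold. Mrps18b was higher in both genotypes in both of these fits, by 0.64 and 0.49 in libraries labelled knockout and by 0.57 and 0.45 in control libraries. The difference between paralogues was not tested.

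The bases upstream of the 3 paralogues are shown to let their promoters be read side by side: Mrps18a (chr17:46110754-46110985, plus strand), Mrps18b (chr17:35916441-35916690, minus strand) and Mrps18c (chr5:100798509-100798626, plus strand). Capitals mark ETS, YY1 or NRF1 letters on either strand, and each stretch ends at the RefSeq or GENCODE start of its gene, whichever lies further upstream.
Mrps18a: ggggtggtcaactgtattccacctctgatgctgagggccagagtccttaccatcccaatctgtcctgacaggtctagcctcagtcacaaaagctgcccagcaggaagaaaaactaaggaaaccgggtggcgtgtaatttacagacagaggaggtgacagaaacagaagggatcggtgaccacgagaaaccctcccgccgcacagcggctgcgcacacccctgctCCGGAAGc
Mrps18b: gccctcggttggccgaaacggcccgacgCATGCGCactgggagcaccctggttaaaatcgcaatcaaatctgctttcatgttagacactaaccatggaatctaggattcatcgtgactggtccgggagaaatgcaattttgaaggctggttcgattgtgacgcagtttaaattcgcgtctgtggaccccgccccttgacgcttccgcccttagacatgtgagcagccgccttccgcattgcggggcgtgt
Mrps18c: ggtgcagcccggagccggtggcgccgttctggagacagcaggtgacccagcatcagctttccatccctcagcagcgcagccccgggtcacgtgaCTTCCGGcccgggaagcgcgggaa
The capitals are ETS letters at -26 to -20 in Mrps18a, the reverse complement of the NRF1 letters at -222 to -216 in Mrps18b and the reverse complement of the ETS letters at -156 to -150 in Mrps18c, counted from the RefSeq start. Mrps18b held ETS letters too, in the 50 bases after its start, which are not shown. The searched window of Mrps18a held YY1 letters as well, outside the stretch shown.

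Genes with a particular role were followed as well, chosen with earlier results of these data known. Mrpl12, counterpart of the bacterial stalk proteins and known in human cells to bind the mitochondrial RNA polymerase, had 21.9, 23.9 and 24.2 CPM with azoramide and 16.4 and 16.5 CPM with DMSO in libraries labelled knockout, and 26.4, 25.0 and 26.7 CPM with azoramide and 15.4, 18.4 and 14.8 CPM with DMSO in control libraries. It rose by 0.50 (SE 0.11) in libraries labelled knockout and by 0.69 (SE 0.10) in control libraries. Mrpl58, a peptidyl-tRNA hydrolase that frees stalled chains and was built into the large subunit, rose by 0.59 (SE 0.10) in libraries labelled knockout and by 0.63 (SE 0.09) in control libraries. Mrps12, counterpart of the bacterial protein that guards decoding accuracy, rose by 0.44 (SE 0.11) in libraries labelled knockout and by 0.34 (SE 0.09) in control libraries. Mrps36 of the oxoglutarate dehydrogenase complex, which is not in the ribosome, rose by 0.55 (SE 0.15) in libraries labelled knockout and by 0.58 (SE 0.13) in control libraries. All 4 were past the threshold in both genotypes with TMM scaling. Mrpl12 and Mrpl58 stayed past it in both length fits and with plain totals. Mrps12 passed in neither genotype in any of these 3, with 0.26 in libraries labelled knockout and 0.13 in control libraries in the union-length fit, and its labelled knockout call also ended without DMSO library 2 of that label. Mrps36 had 0.10 in libraries labelled knockout (adjusted p = 0.69, edgeR) and 0.17 in control libraries (adjusted p = 0.38, edgeR) in the union-length fit, and its labelled knockout call also ended with plain totals and without DMSO library 1 of that label.

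**Figure D3:**
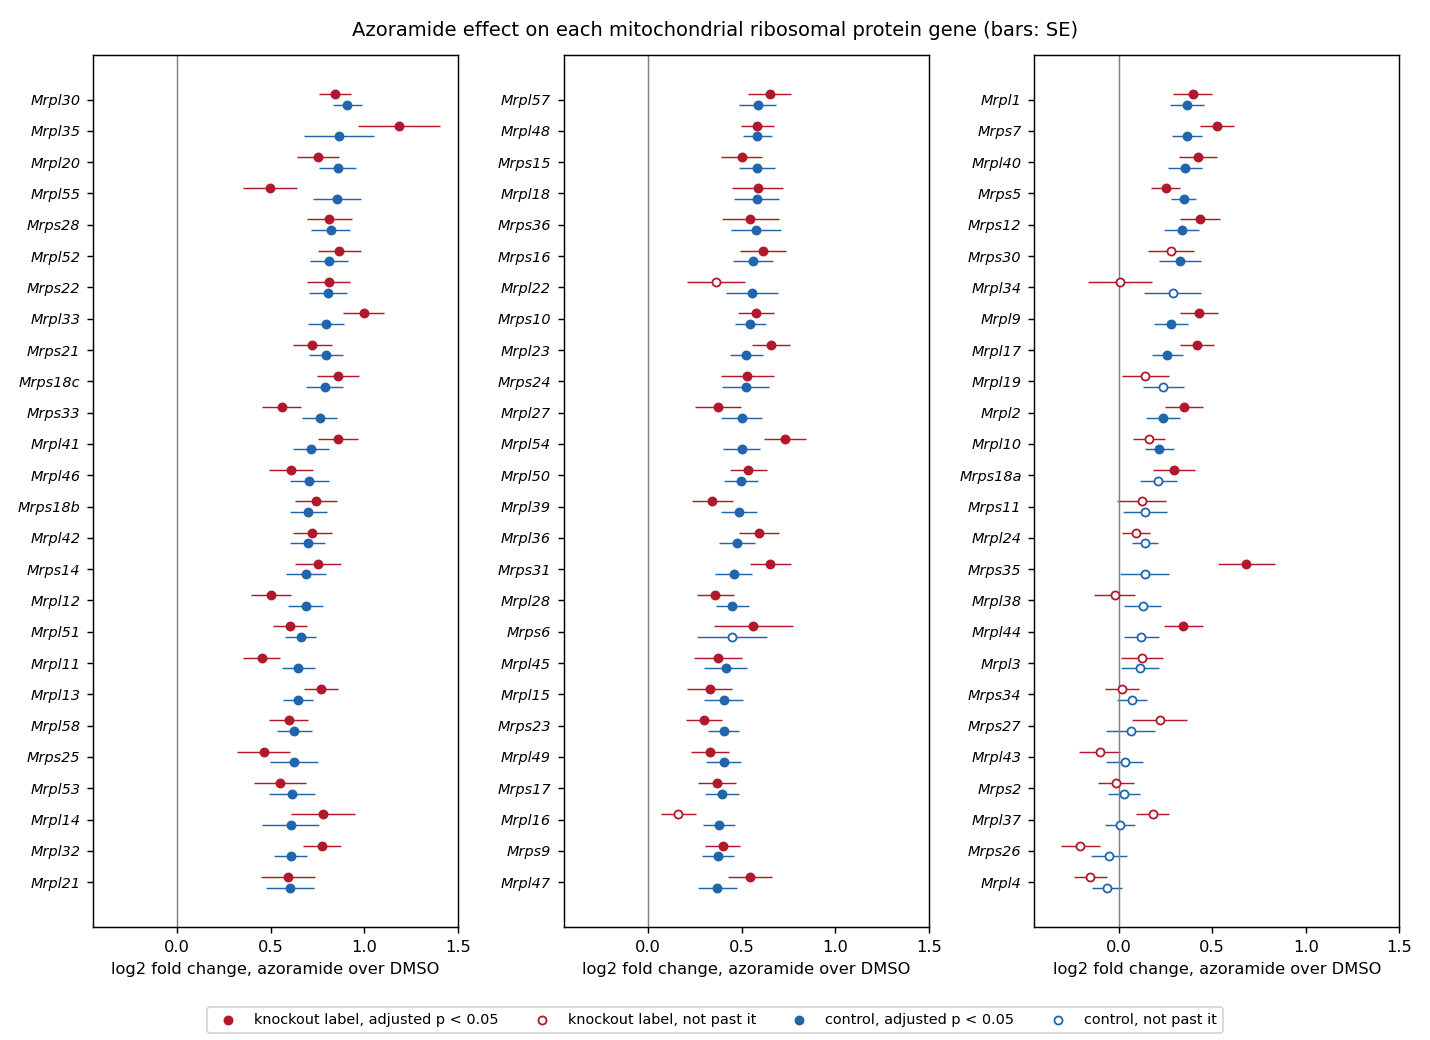
Log2 fold change of azoramide over DMSO for each of the 78 genes, with bars of 1 SE, the labelled knockout point above the control point, ordered by the control value. Filled points passed an adjusted p of 0.05 in edgeR and open points did not; values run from -0.20 to 1.18 in libraries labelled knockout and from -0.06 to 0.91 in control libraries, and no filled point lies below 0.

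Not all genes were called higher, and a gene not called may still have changed. Of the 78, 13 were called in neither genotype, and among them Mrpl24 had the highest mean level of all 78 genes, with 63.5, 66.7 and 68.7 CPM with azoramide and 58.9 and 65.4 CPM with DMSO in libraries labelled knockout, and 71.2, 65.7 and 71.0 CPM with azoramide and 58.3, 66.3 and 64.0 CPM with DMSO in control libraries. Azoramide and DMSO overlapped in both genotypes, and the log2 fold changes were 0.09 (SE 0.08) in libraries labelled knockout and 0.14 (SE 0.07) in control libraries. Mrpl4, whose bacterial counterpart lines the exit tunnel, had 29.8, 29.2 and 30.2 CPM with azoramide and 34.3 and 31.8 CPM with DMSO in libraries labelled knockout, and 28.4, 31.6 and 33.3 CPM with azoramide and 32.6, 33.1 and 31.8 CPM with DMSO in control libraries. In libraries labelled knockout it was the 1 gene whose azoramide libraries all lay below the DMSO libraries, where 31.4% of all genes tested did so, with a log2 fold change of -0.15 (SE 0.09, adjusted p = 0.19, edgeR). In control libraries the value was -0.06 (SE 0.08). Without overlap between treatments, 65 genes were higher in libraries labelled knockout and 64 in control libraries, where 30.2% and 23.8% of all genes tested did so.

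The other genes near 0 came from both subunits. In libraries labelled knockout the log2 fold changes were 0.12 for Mrps11, 0.13 for Mrpl3, -0.02 for Mrpl38, -0.10 for Mrpl43, -0.01 for Mrps2 and 0.02 for Mrps34. In control libraries they were 0.14 for Mrps11, 0.11 for Mrpl3, 0.13 for Mrpl38, 0.03 for Mrpl43, 0.03 for Mrps2 and 0.07 for Mrps34. Mrps11, Mrpl3 and Mrps2 are counterparts of conserved bacterial proteins, and Mrpl38, Mrpl43 and Mrps34 were added in mitochondria. Exons of Mrps11, Mrpl3, Mrpl43 and Mrps34, and of Mrpl24 above, overlap those of other genes, and those of Mrpl38, Mrps2 and Mrpl4 do not. In each genotype 23 of 33 genes with such an overlap were higher and 38 of 45 without. The part of overlap in these values was not tested. Mrps26, picked after its values were seen, was the lowest in libraries labelled knockout, at -0.20, and -0.05 in control libraries. Some of these genes were called lower under other settings in libraries labelled knockout: Mrpl43 at -0.35 (adjusted p = 0.03, edgeR) in the union-length fit, and Mrpl4 at -0.31 and Mrps26 at -0.36 with plain library totals, where Mrpl4 was also called lower in control libraries, at -0.23.

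The same genes were then compared between genotypes. Of the 78, 57 were higher in both, against 15.8% of all genes tested. Mrps6, Mrps18a, Mrps35 and Mrpl44 passed in libraries labelled knockout and not in control libraries, and Mrpl22, Mrpl16, Mrps30 and Mrpl10 passed in control libraries and not in libraries labelled knockout. For none of these 8 did the test of the difference itself pass. The value was positive in both for 73 and negative in both for 2, Mrpl4 and Mrps26. The 2 azoramide comparisons share no library, and their log2 fold changes had a Pearson correlation of 0.855 across the 78 genes, given as a description since genes of 1 library share its depth and handling.

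**Figure D4:**
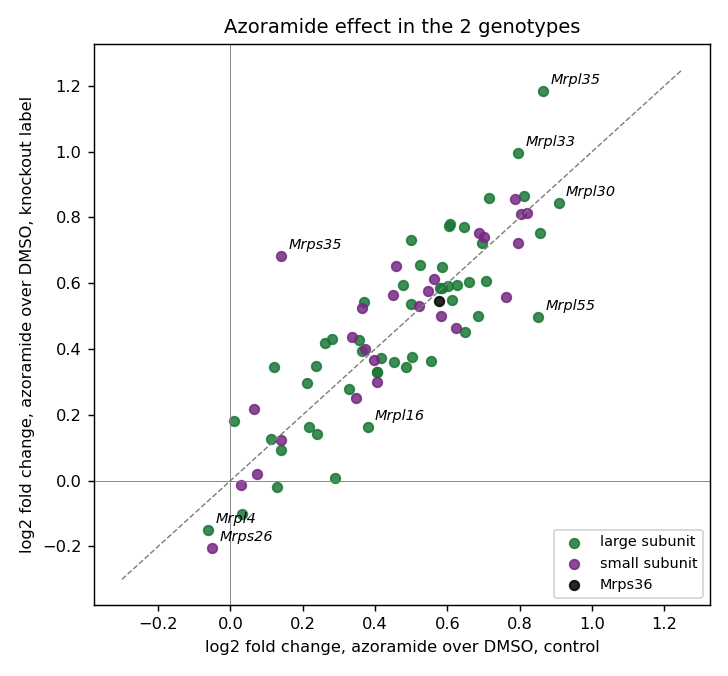
Log2 fold change of azoramide over DMSO in libraries labelled knockout (vertical) against control libraries (horizontal) for the 78 genes, green for the large subunit, purple for the small one and black for Mrps36. The dashed line marks equal values; most genes lie near it with r of 0.855, Mrps35 lies above and Mrpl55 below.

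Whether the genotype label changed these mRNAs was asked in 3 ways, and no gene passed in any. For labelled knockout against control libraries, edgeR called 0 of 78 with DMSO and 0 of 78 with azoramide, and 0 of 78 for the interaction, which sets the azoramide effect under the knockout label against the effect in control libraries. Over all genes tested, 0% were called in each, and DESeq2's Wald test also called 0 of 78 each time. At an unadjusted p under 0.05 there were 5 genes with DMSO, 0 with azoramide and 1 for the interaction, where 3.52%, 5% and 3.73% of all genes tested were. The smallest adjusted p-values in edgeR were 0.999, 0.968 and 0.999. Median log2 differences were -0.02, -0.03 and -0.004. A 95% interval typically reached 0.21, 0.19 and 0.28 to either side of a gene's value. These widths hold for single genes before adjustment and are not the smallest difference the adjusted test could call. With DMSO, Mrpl35 at -0.57 and Mrpl23 at -0.24 had intervals that left out 0, yet their adjusted p was 0.999 in edgeR. Differences well under these widths, and larger ones too, may thus have gone uncalled at this depth and number of libraries. Since Zzef1 counts did not show a clear loss, directions here are those of the labels.

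The genes with the smallest p-values did not pass the test. With DMSO they were Mrpl35 at -0.57 (SE 0.22), Mrps35 at -0.33 (SE 0.15) and Mrpl23 at -0.24 (SE 0.10), and with azoramide Mrps36 at -0.27 (SE 0.13), Mrpl15 at -0.18 (SE 0.10) and Mrpl12 at -0.16 (SE 0.09), as log2 values of labelled knockout over control. For the interaction they were Mrps35 at 0.54 (SE 0.20), Mrpl55 at -0.36 (SE 0.19) and Mrpl16 at -0.22 (SE 0.12). Mrps35, a mitochondrial addition to the small subunit, had 18.2, 21.1 and 15.5 CPM with azoramide and 11.5 and 11.3 CPM with DMSO in libraries labelled knockout, and 14.0, 18.5 and 14.8 CPM with azoramide and 15.8, 12.9 and 14.3 CPM with DMSO in control libraries. Treatments were apart in libraries labelled knockout and overlapped in control libraries, but the interaction had an unadjusted p of 0.0143 and an adjusted p of 0.999 in edgeR.

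Levels of these mRNAs were uneven by a measure that rests on the annotated transcript. Per kilobase of the main annotated transcript and averaged over the 11 libraries, Mrpl33 had 70.8 CPM, Mrpl52 68.0 CPM and Mrps21 65.5 CPM, and Mrps25 had 1.81 CPM, Mrpl35 2.93 CPM and Mrpl19 3.34 CPM, with a median of 15.9 CPM per kilobase for the 78 genes. The proteins of the cytosolic ribosome had a median of 339 CPM per kilobase. The main transcript of a gene need not be the one made in islets, and the 3 genes at the low end have long ones, of 6073 bp for Mrps25, 3721 bp for Mrpl35 and 5000 bp for Mrpl19. Exons of Mrps25 overlap those of Nr2c2 over 4590 of 6576 bp, and exons of Mrpl19 overlap those of Gcfc2 over 1962 of 5450 bp. Reads in such overlaps cannot be assigned with certainty. For Mrpl33 all annotated exons cover 7326 bp, while its level was divided by a main transcript of 478 bp.

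Length was then taken class by class. Of all genes tested with a main transcript under 1 kb, 42.9% were called higher in libraries labelled knockout and 45.3% in control libraries, and over 4 kb 10.4% in libraries labelled knockout and 8.26% in control libraries. The 78 genes are mostly short, with main transcripts of 418 to 7300 bp and a median of 1302 bp. In libraries labelled knockout, 22 of 25 genes under 1 kb were higher, 19 of 28 from 1 to 2 kb, where 29.6% of all genes were, 13 of 16 from 2 to 4 kb, where 18% were, and 7 of 9 over 4 kb. In control libraries, 21 of 25 genes under 1 kb were higher, 20 of 28 from 1 to 2 kb, where 30.5% of all genes were, 14 of 16 from 2 to 4 kb, where 17% were, and 6 of 9 over 4 kb. In every length class the share of these genes was above that of all genes in the class. Across the 78 genes, log2 length and effect had a Pearson correlation of -0.24 in libraries labelled knockout and -0.30 in control libraries, as a description.

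**Figure D5:**
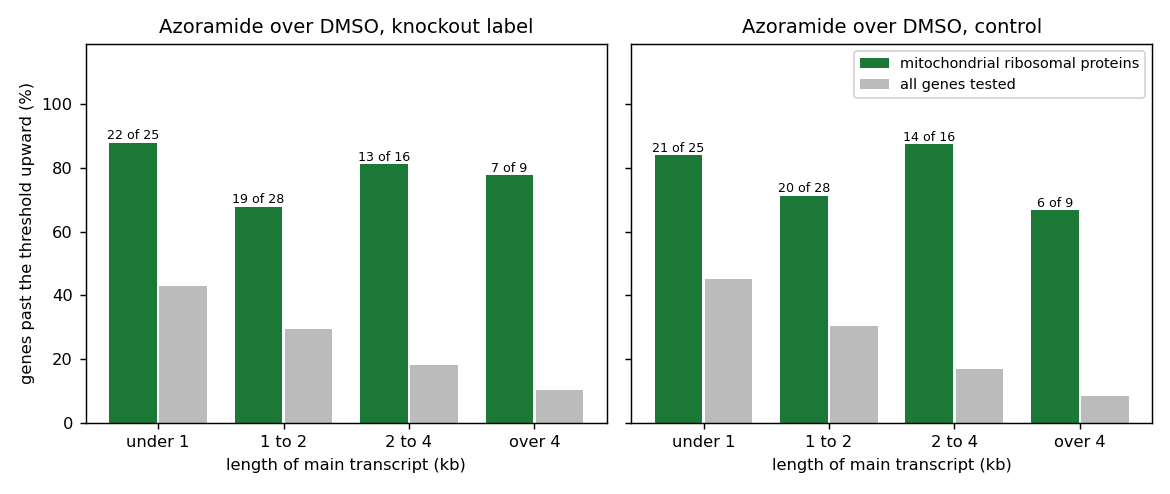
Share of genes past the threshold upward, azoramide over DMSO, by length of the main transcript in kb, in libraries labelled knockout (left) and control libraries (right); green bars are mitochondrial ribosomal protein genes, with their count above, and grey bars all genes tested. Grey bars step down with length, from 42.9 to 10.4% on the left and from 45.3 to 8.26% on the right, while green bars stay above them.

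In the union-length fit, which takes length and GC content out of each library by a smooth trend, 40 genes were higher and 1 lower in libraries labelled knockout and 40 higher and 0 lower in control libraries, where 14.5% and 14.1% of all genes were called higher and 10.2% and 8.91% lower, and the medians were 0.32 and 0.30. In the main-transcript fit, 32 genes were higher and 1 lower in libraries labelled knockout and 34 higher and 0 lower in control libraries, where 13.5% and 12.8% of all genes were called higher and 9.68% and 8.44% lower, with a median of 0.26 in each. With plain library totals in place of TMM, 40 genes were higher and 2 lower in libraries labelled knockout and 46 higher and 1 lower in control libraries, where 12.4% and 10.8% of all genes were called higher and 30.1% and 32.8% lower, but that scaling moved the median of all genes to -0.16 and -0.19; on it the 78 genes had medians of 0.35 and 0.32. In both genotypes and under all 4 of these treatments of the counts, 18 genes were higher: Mrpl11, Mrpl12, Mrpl30, Mrpl32, Mrpl35, Mrpl41, Mrpl46, Mrpl48, Mrpl51, Mrpl52, Mrpl54, Mrpl58, Mrps14, Mrps16, Mrps18b, Mrps21, Mrps22 and Mrps28. Mrpl16 was the gene that turned past the threshold: with the main transcript's length taken out it was -0.38 (adjusted p = 0.0063, edgeR) in libraries labelled knockout and -0.10 in control libraries, against 0.16 and 0.38 without.

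Other RNA classes moved with the treatment as well. Cytosolic ribosomal proteins took 2.66 to 2.84% of counts with azoramide and 1.74 to 1.75% with DMSO in libraries labelled knockout, and 2.83 to 2.92% with azoramide and 1.76 to 1.86% with DMSO in control libraries. Of their 78 tested genes, 77 were higher in libraries labelled knockout and 78 in control libraries, with median log2 fold changes of 0.84 and 0.88. RNAs of the mitochondrial genome took 7.60 to 7.98% of counts with azoramide and 5.17 to 5.19% with DMSO in libraries labelled knockout, and 7.16 to 8.51% with azoramide and 5.38 to 5.50% with DMSO in control libraries. Of the 13 mRNAs that the mitochondrial ribosome translates, 12 were higher in each genotype, with medians of 0.80 and 0.75, the exception being mt-Nd6, the 1 encoded on the opposite strand of that genome from the others. Nuclear genes for complex I subunits had 36 of 37 higher in libraries labelled knockout and 37 of 37 in control libraries, with medians of 0.75 and 0.76. The medians of the mitochondrial ribosomal proteins, 0.50 and 0.49, were the lowest of these 4 groups of genes, a difference that was not tested.

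Cell type markers were read in the same comparisons. Over all genes tested, 20% in libraries labelled knockout and 19.3% in control libraries were called higher, and 19.8% in each lower. Of 4 α-cell markers, 3 were higher with azoramide in libraries labelled knockout and 2 in control libraries, and their summed level was 22823 to 24806 CPM with azoramide and 14077 to 16025 CPM with DMSO in libraries labelled knockout, and 23614 to 26955 CPM with azoramide and 13950 to 15433 CPM with DMSO in control libraries. Macrophage markers summed to 53.2 to 82.3 CPM with azoramide and 36.3 to 37.2 CPM with DMSO in libraries labelled knockout, and to 50.1 to 60.7 CPM with azoramide and 34.5 to 44.5 CPM with DMSO in control libraries, with 1 of 5, or 20%, called higher in each genotype, near the share over all genes. Cd68, a lysosomal protein gene, carried this sum, with a mean of 38.8 CPM with azoramide and 14.1 CPM with DMSO in libraries labelled knockout, and 33.5 CPM with azoramide and 16.2 CPM with DMSO in control libraries, while Csf1r had means of 8.74 and 6.96 CPM in libraries labelled knockout and 5.21 and 6.0 CPM in control libraries, azoramide first. Stellate cell and fibroblast markers summed lower with azoramide. In libraries labelled knockout the sum was 8.77 to 12.7 CPM with azoramide and 17.7 to 20.8 CPM with DMSO. In control libraries it was 7.95 to 11.7 CPM with azoramide and 15.1 to 17.5 CPM with DMSO. Of 4 tested, 1 was called lower in libraries labelled knockout and 2 in control libraries. Pdgfrb carried most of this sum, with means of 6.69 and 12.5 CPM in libraries labelled knockout and 5.99 and 10.9 CPM in control libraries, azoramide first. Acta2, near the floor, went the other way in control libraries, at 0.45 CPM with azoramide and 0.30 CPM with DMSO. Of 5 endothelial markers, 2 were lower in each genotype. In control libraries 1 was higher, Emcn, with means of 30.7 CPM with azoramide and 23.2 CPM with DMSO. The 5 endothelial markers summed to 207 to 238 CPM with azoramide and 274 to 277 CPM with DMSO in libraries labelled knockout, and to 208 to 263 CPM with azoramide and 263 to 277 CPM with DMSO in control libraries. The 6 β-cell markers split, with 2 higher and 2 lower in libraries labelled knockout and 3 higher and 2 lower in control libraries. The T-cell marker Cd3e was at 0 in 10 of the 11 libraries. The part of these cells in the result was not tested.

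Several mitochondrial ribosomal proteins carry other names, and 5 of them were taken as a second list. Chchd1 and Aurkaip1, both of the small subunit, rose in both genotypes: Chchd1 had 44.5, 48.0 and 37.6 CPM with azoramide and 23.9 and 22.9 CPM with DMSO in libraries labelled knockout, and 46.2, 47.6 and 46.0 CPM with azoramide and 23.5, 26.4 and 23.5 CPM with DMSO in control libraries. Its log2 fold changes were 0.89 (SE 0.10) in libraries labelled knockout and 0.93 (SE 0.09) in control libraries, and those of Aurkaip1 were 0.80 (SE 0.09) and 0.68 (SE 0.08). Dap3, a GTP-binding small-subunit protein also linked to cell death, had 0.32 (SE 0.08, adjusted p = 0.0037, edgeR) in libraries labelled knockout and 0.14 (SE 0.07, adjusted p = 0.13, edgeR) in control libraries. Ptcd3, an RNA-binding small-subunit protein, had 0.46 (SE 0.09) in libraries labelled knockout and 0.18 (SE 0.08, adjusted p = 0.11, edgeR) in control libraries. Gadd45gip1 of the large subunit had 0.12 in libraries labelled knockout and 0.08 in control libraries and passed in neither. In all, 4 of 5 were higher in libraries labelled knockout and 2 of 5 in control libraries.

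Factors that build or run the ribosome included genes called in either direction. Of all genes tested, 20% in libraries labelled knockout and 19.3% in control libraries were called higher and 19.8% in each lower. For assembly factors, translation factors and tRNA synthetases the share called higher was near that of all genes. The share called lower was smaller than that of all genes, with few genes in each list. Of 26 assembly factors, 7 were higher and 1 lower in libraries labelled knockout, and 7 higher and 2 lower in control libraries, which is 26.9% higher in each. Fastkd2, an RNA-binding protein needed for the large-subunit RNA, rose by 0.64 (SE 0.09) in libraries labelled knockout and by 0.63 (SE 0.08) in control libraries. The GTPase Gtpbp10 rose by 0.51 (SE 0.10) in libraries labelled knockout and by 0.45 (SE 0.09) in control libraries, and Malsu1, which keeps the subunits from joining early, by 0.40 (SE 0.15) in libraries labelled knockout and by 0.73 (SE 0.14) in control libraries. Dhx30, an RNA helicase, fell by 0.29 (SE 0.07) in libraries labelled knockout and by 0.20 (SE 0.06) in control libraries. Mettl17, an assembly factor of the small subunit, had -0.22 (SE 0.12, adjusted p = 0.15, edgeR) in libraries labelled knockout and fell by 0.39 (SE 0.11) in control libraries. Of 15 translation factors, 3 were higher and 0 lower in each genotype, which is 20% higher, the same share as over all genes. Among them were Slirp, a stabiliser of mitochondrial mRNAs, which rose by 0.96 (SE 0.12) in libraries labelled knockout and by 1.0 (SE 0.11) in control libraries, and the release factor Mtrf1, which rose by 0.44 (SE 0.15) in libraries labelled knockout and by 0.62 (SE 0.13) in control libraries. At an unadjusted p under 0.05, edgeR had 1 and 0 of the translation factors lower. Of 17 mitochondrial tRNA synthetases, 2 were higher and 1 lower in libraries labelled knockout and 3 higher and 2 lower in control libraries, or 11.8% and 17.6% higher. Of 6 genes for mitochondrial transcription, 4 were higher and 1 lower in each: Tfam, the packaging and transcription factor of the mitochondrial genome, rose by 0.24 (SE 0.08) in libraries labelled knockout and by 0.28 (SE 0.07) in control libraries, and Polrmt, its RNA polymerase, fell by 0.34 (SE 0.12) in libraries labelled knockout and by 0.35 (SE 0.10) in control libraries.

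The 78 genes lie on 17 chromosomes, 11 of them on chromosome 11, and many start next to a gene on the other strand. A protein-coding start site on the opposite strand lay within 1000 bp for 33 of them, or 42.3%, against 10.8% of 22028 protein-coding genes (GENCODE M21, GRCm38). Of the 33 partners, 29 were tested; with azoramide 8 were higher and 8 lower in libraries labelled knockout, and 7 higher and 7 lower in control libraries, with medians of -0.05 and -0.11. These shares lie near those of all genes tested, of which 20% and 19.3% were called higher and 19.8% lower. Mrpl46 and Mrps11 are each other's partner, so that pair was counted from both sides. Both are thus also among the partners, and Mrpl46 is among those called higher in each genotype. Over the same pairs, 23 of the mitochondrial ribosomal protein genes were higher in each genotype, with medians of 0.54 and 0.48, and in 7 pairs of each genotype this gene was higher while its partner was lower.

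Single pairs show the range. Mrps18b and Ppp1r10, a regulatory subunit of protein phosphatase 1, start 45 bp apart; while Mrps18b rose, Ppp1r10 had 76.6, 77.0 and 67.5 CPM with azoramide and 94.7 and 90.7 CPM with DMSO in libraries labelled knockout, and 71.5, 69.6 and 66.9 CPM with azoramide and 90.7, 95.6 and 86.7 CPM with DMSO in control libraries. It fell by 0.33 (SE 0.07) in libraries labelled knockout and by 0.39 (SE 0.06) in control libraries on the log2 scale. Mrpl51 starts 100 bp from Ncapd2, a condensin subunit, which fell by 0.88 in libraries labelled knockout and by 0.75 in control libraries. Mrpl49 starts 59 bp from Fau, which encodes a cytosolic ribosomal protein and rose by 0.83 in libraries labelled knockout and by 0.84 in control libraries. Mrpl46 and Mrps11 are partners of each other (chromosome 7, 78775236 to 78783531, minus strand, and 78783119 to 78792989, plus strand). Mrpl46 had 19.4, 21.6 and 19.9 CPM with azoramide and 13.8 and 12.8 CPM with DMSO in libraries labelled knockout, and 19.8, 23.6 and 24.0 CPM with azoramide and 14.4, 14.6 and 12.4 CPM with DMSO in control libraries. It rose by 0.61 (SE 0.12) in libraries labelled knockout and by 0.71 (SE 0.11) in control libraries, while Mrps11 had 0.12 (SE 0.13) in libraries labelled knockout and 0.14 (SE 0.12) in control libraries and was past the threshold in neither. Exons of 33 of the 78 genes overlap those of another gene, 173 bp for this pair, and since the strand setting of the counting is not given in the sources used here, reads in an overlap cannot be assigned with certainty. These pairs were picked after their values were seen.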

How the data were processed

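Raw counts of reads for each gene were deposited by the authors in 1 table with a column per library, not normalized. Alignment with STAR 2.7.2a, the build mm10 and DESeq2, with no role given, are named in the submitters' processing notes; how reads were counted, on which annotation and with what regard to strand is not given in the sources used here. Sequencing ran on the DNBSEQ-T7 platform, per the labels' protocols. Groups and replicate numbers came from the sample titles.

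Counts were analysed in R 4.3.3 with edgeR 4.0.16: TMM scaling, the filter for low counts by group, and the robust quasi-likelihood test fitted once over all 4 groups and 11 libraries, which lends the group of 2 libraries the spread of the others. P-values were adjusted by Benjamini-Hochberg over 15093 genes, taking 0.05 as threshold, and fold changes stand on the log2 scale with standard errors (SE) or 95% intervals. The code was tested on simulated data. Depth was 16832800 to 19501813 counts per library.

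Coordinates (1-based), lengths and start sites came from GENCODE M21 (GRCm38, the assembly called mm10), where 32235 of 32285 gene identifiers had an entry. The main transcript is the APPRIS principal one. Promoters came from RefSeq (GRCm38.p6).

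Alternatives were DESeq2 1.42.0 (size factors, Wald test), plain totals, no filter, only the groups compared, a replicate block, offsets for length and GC content (trends from mgcv 1.9.3), and leaving out libraries. The genes and lists were chosen with earlier results of these data known. Genes named were the 8 largest changes in each azoramide comparison among those called without overlap, 8 called in neither genotype, the 3 highest and lowest levels per length, Mrps18a, Mrps18b, Mrps18c, Mrpl12, Mrps12, Mrps36 and Mrpl58, and the 3 of smallest p in each other comparison; levels per length used the main transcript.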

Additional observations from a re-analysis of the deposited data

How the results depend on the processing

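Azoramide against DMSO gave 61 genes higher and 0 lower in each genotype. With the length and GC offset this was 40 higher and 1 lower in libraries labelled knockout and 40 higher in control libraries (medians 0.32 and 0.30), with the main transcript's length, chosen after seeing the data, 32 higher and 1 lower, and 34 higher (medians 0.26 and 0.26), and with plain totals 40 higher and 2 lower, and 46 higher and 1 lower (medians 0.35 and 0.32). The causes were not tested. Leaving out 1 library at a time gave 48 to 61 higher and 0 to 1 lower in libraries labelled knockout (medians 0.46 to 0.52; the 48 without labelled knockout DMSO library 2), and 56 to 61 higher in control libraries (medians 0.46 to 0.54). Without both libraries that stood apart, 61 were higher and 1 lower in libraries labelled knockout and 64 higher in control libraries (median 0.54). Library names share a stem between the azoramide and DMSO libraries of the same genotype and number, but no label says that this pairs the samples. With the replicate block 61 were higher and 1 lower in libraries labelled knockout and 60 higher in control libraries, and deviations of same-numbered libraries had correlations of 0.083, 0.143 and 0.006 in control libraries; in libraries labelled knockout the 2 DMSO libraries mirror each other by construction, which gives no check. DESeq2's size factors and Wald test, no filter and the groups compared alone gave 60 to 61.

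For the genotype label, 0 genes were called under any setting run. The median with DMSO was 0.016 with the main transcript's length, 0.0081 without both libraries and -0.039 to 0.0081 with 1 library left out; with azoramide it was 0.017 with plain totals, and for the interaction -0.043 to 0.030 with 1 library left out. With the main transcript's length, Mrpl16 turned to -0.38 in libraries labelled knockout and -0.10 in control libraries, and Mrps36 to -0.022 in libraries labelled knockout. The lowest mean level of any of the genes was 4.49 CPM.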

Other observations

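Regulators known to act on nuclear genes for mitochondrial proteins were read from a list of 9. In libraries labelled knockout 1 was higher and 1 lower with azoramide, and in control libraries 0 were higher and 2 lower, where 20% and 19.3% of all genes tested were called higher and 19.8% in each lower. At an unadjusted p under 0.05, edgeR had 0 of the 9 higher and 4 lower in control libraries. In libraries labelled knockout it had 3 at that cut, 2 of them lower. Of the 15093 genes tested, 3597 were lower at that cut in control libraries and 3555 in libraries labelled knockout. Yy1, a zinc-finger factor whose letters are in 17.3% of the promoter windows above, had 58.5, 54.2 and 63.1 CPM with azoramide and 76.2 and 79.8 CPM with DMSO in libraries labelled knockout, and 59.9, 56.2 and 57.2 CPM with azoramide and 73.2, 69.4 and 80.4 CPM with DMSO in control libraries. It fell by 0.41 (SE 0.08, adjusted p = 0.00044, edgeR) in libraries labelled knockout and by 0.36 (SE 0.07, adjusted p = 0.00057, edgeR) in control libraries on the log2 scale, while the genes it is set beside were mostly higher. Nrf1 had -0.19 (SE 0.11) in libraries labelled knockout and -0.21 (SE 0.10) in control libraries, and Gabpa -0.17 (SE 0.09) and -0.12 (SE 0.08), with none of these past the threshold.

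Ppargc1a, a coactivator known for raising mitochondrial gene expression, had 9.92, 9.40 and 7.17 CPM with azoramide and 3.28 and 3.36 CPM with DMSO in libraries labelled knockout, and 4.88, 6.92 and 6.95 CPM with azoramide and 3.84, 10.2 and 4.27 CPM with DMSO in control libraries. Its log2 fold change was 1.41 (SE 0.38, adjusted p = 0.012, edgeR) in libraries labelled knockout and 0.02 (SE 0.33, adjusted p = 0.96, edgeR) in control libraries, where control DMSO library 2 lay above the other 5. The difference between the genotypes had an adjusted p of 0.999 in edgeR.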
